A study of Mus musculus with 7 samples.

Results

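Interferon-stimulated genes (ISGs) are switched on when interferon binds its receptor, and they were followed here in whole colon tumors of mice that carried Dnmt3a(+/-) or Dnmt3a(+/+) bone marrow (BM). A list of 39 ISG symbols was looked up among the Ensembl identifiers of the deposited count table. The lookup used no expression value, but the members were chosen with earlier results of these data known. A row was matched for 38 of the 39, all of which had enough counts to be tested among the 15810 genes tested of 43346 listed. Gbp5 was not analysed here. The members were divided by the interferon that is best known to induce them. The type I type holds 12 Ifit, Oas, Oasl and Mx genes. The interferon gamma type holds 6 genes: Gbp2, Gbp3, Gbp7, Iigp1, Igtp and Irf1. The remaining 20 members answer to both or were not placed in either class.

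The tumors came from 7 wild-type recipients that were lethally irradiated and transplanted with BM of either genotype. The labels give them as C57BL6/J and 8 wk old, while the methods of the study describe a congenic strain and a younger age. Colitis-associated cancer (CAC) was then induced by the carcinogen azoxymethane (AOM, 10 mg/kg) and then by dextran sulfate sodium (DSS, 3% over 3 cycles), which injures and inflames the colon. There were 4 Dnmt3a(+/-) BM tumors and 3 Dnmt3a(+/+) BM tumors, labelled as biological replicates. The sample descriptions begin with BMT18 for replicates 1 and 2 of each group. They begin with BMT8 for replicate 3 of Dnmt3a(+/+) BM and replicates 3 and 4 of Dnmt3a(+/-) BM. These prefixes are read here as the names of separate transplantation experiments, which is an inference. The descriptions of Dnmt3a(+/-) BM replicates 2, 3 and 4 also carry an added 2, which no Dnmt3a(+/+) BM description has. Its meaning is not given, and its part in the values was not tested. Donors of both groups carried Mx1-Cre and had received poly(I:C), an RNA mimic that induces interferon. The promoter of that Cre is the promoter of Mx1, itself a member, and it is known to respond to interferon in many cell types besides blood cells. The deletion was confined to the graft, so the cells of the recipient in every tumor, epithelium among them, were wild type for Dnmt3a. The question addressed by the comparison is how heterozygous loss of this DNA methyltransferase in blood cells goes with the transcriptome of the tumor.

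Type I interferons (Ifna and Ifnb1 products) act through Ifnar1 and Ifnar2 to activate a complex that contains Stat2 and Irf9 and binds the interferon-stimulated response element (ISRE). Interferon gamma, made mainly by T and NK cells, acts through Ifngr1 and Ifngr2 on genes with a gamma-activated site (GAS), and it induces Irf1, which binds ISRE-like elements in turn. In the colon, both pathways act in epithelium, in stroma and in leukocytes, and they guard against viruses and intracellular bacteria.

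Short promoter stretches are shown for 8 members, because both classes hold both elements. Sequences are from RefSeq on GRCm38.p6, read 5′ to 3′ on the strand of the gene, and capitals mark the matches within each stretch to the ISRE core GAAANNGAA or the GAS core TTCNNNGAA, searched on both strands. In Ifit1 (chr19:34640765-34640828, plus strand) and Isg15 (chr4:156200861-156200911, minus strand), 3 ISRE cores lay close together. Oas1a (chr5:120907516-120907560, minus strand) and its neighbour Oas1g (chr5:120887602-120887646, minus strand) held the same 45 bases. Gbp2 (chr3:142620590-142620628, plus strand) had 1 ISRE core, and Irf1 (chr11:53769909-53769947, plus strand) had 1 GAS core and no ISRE core. Igtp (chr11:58199496-58199545, plus strand) and Irgm2 (chr11:58214887-58214936, plus strand) carried a GAS core followed by an ISRE core.
Ifit1: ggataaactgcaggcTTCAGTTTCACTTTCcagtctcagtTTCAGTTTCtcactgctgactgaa
Isg15: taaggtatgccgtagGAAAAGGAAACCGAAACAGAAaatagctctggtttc
Oas1a: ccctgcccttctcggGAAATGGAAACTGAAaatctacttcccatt
Oas1g: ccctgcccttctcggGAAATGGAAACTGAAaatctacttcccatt
Gbp2: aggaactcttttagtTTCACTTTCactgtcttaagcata
Irf1: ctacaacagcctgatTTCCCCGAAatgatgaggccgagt
Igtp: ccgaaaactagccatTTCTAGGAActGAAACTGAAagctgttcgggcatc
Irgm2: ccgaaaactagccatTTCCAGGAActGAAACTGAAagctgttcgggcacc
A promoter window of 300 bases was found for 28 of the 38 members with a row. An ISRE core was in a window of 19 of these 28 genes (67.9%), against 9.76% of 27025 genes in all. By class, it was in 6 of 9 type I type genes, 4 of 5 interferon gamma type genes and 9 of 14 other members. A GAS core was in 2 of 9 type I type genes and in 3 of 5 interferon gamma type genes, against 9.55% of all genes. A match is a description of the letters in this window and not evidence of binding. No promoter entry was found for Oas2, Mx1, Mx2, Iigp1, Dhx58, Zbp1, Usp18, Ifi27, Parp14 and Rtp4.

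Total counts ranged from 38472738 to 64314999 per tumor, and values below are CPM (counts relative to library size) scaled by edgeR's TMM factors. Epithelial markers were high in every tumor, with 10 markers summing to between 9574 and 31626 CPM. The 10 T and NK cell markers together reached 8.76 to 19.9 CPM in Dnmt3a(+/+) BM tumors and 1.30 to 26.9 CPM in Dnmt3a(+/-) BM tumors. The lowest value was in Dnmt3a(+/-) BM replicate 4, where Cd8a, Cd8b1, Prf1 and Ncr1 had 0 counts. Replicate 2 of Dnmt3a(+/-) BM stood apart through its fibroblast markers, 1017 CPM against at most 358 CPM in any other tumor, and its endothelial markers, 130 CPM against at most 57.2 CPM. Dnmt3a itself, which is deleted only in the graft, averaged 30.3 ± 8.94 CPM in the 4 Dnmt3a(+/-) BM tumors and 22.5 ± 2.06 CPM (SD) in the 3 Dnmt3a(+/+) BM tumors, which did not pass the test (edgeR, adjusted p = 0.542).

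Over all 7 tumors, most ISGs had lower values with Dnmt3a(+/-) BM, but no member passed the test and the direction rested on BMT8. The log2 fold change was below 0 for 35 of 38 members, against 49.8% of all genes tested, with a median of -0.60, against 0.0025 over all genes. In BMT18 alone, 9 of 38 members were below 0 in the same test, and without Dnmt3a(+/+) BM replicate 3 there were 21 of 38. Over all tumors, the 3 exceptions were Usp18 (0.50), Irgm2 (0.07) and Oas2 (0.01). The quasi-likelihood test of edgeR was used, with p-values adjusted by the Benjamini-Hochberg method, and a call required an absolute log2 fold change over 1 together with an adjusted p under 0.05. No member met this and none of the 15810 genes did (0%), and the lowest adjusted p of a member was 0.361. DESeq2 called 299 genes (1.83% of those it tested) and also none of the members. At an unadjusted p under 0.05, 7 members were lower and 0 higher, against 5.2% of all genes lower and 5.83% higher. The same 7 members were those whose groups did not overlap, each with all Dnmt3a(+/-) BM tumors below all Dnmt3a(+/+) BM tumors. This was so for 18.4% of members and 6.32% of all genes, and the opposite arrangement was seen for 0 members and 6.12% of all genes. In whole tumors, fewer cells that express a gene and less RNA per cell cannot be told apart.

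**Figure D1:**
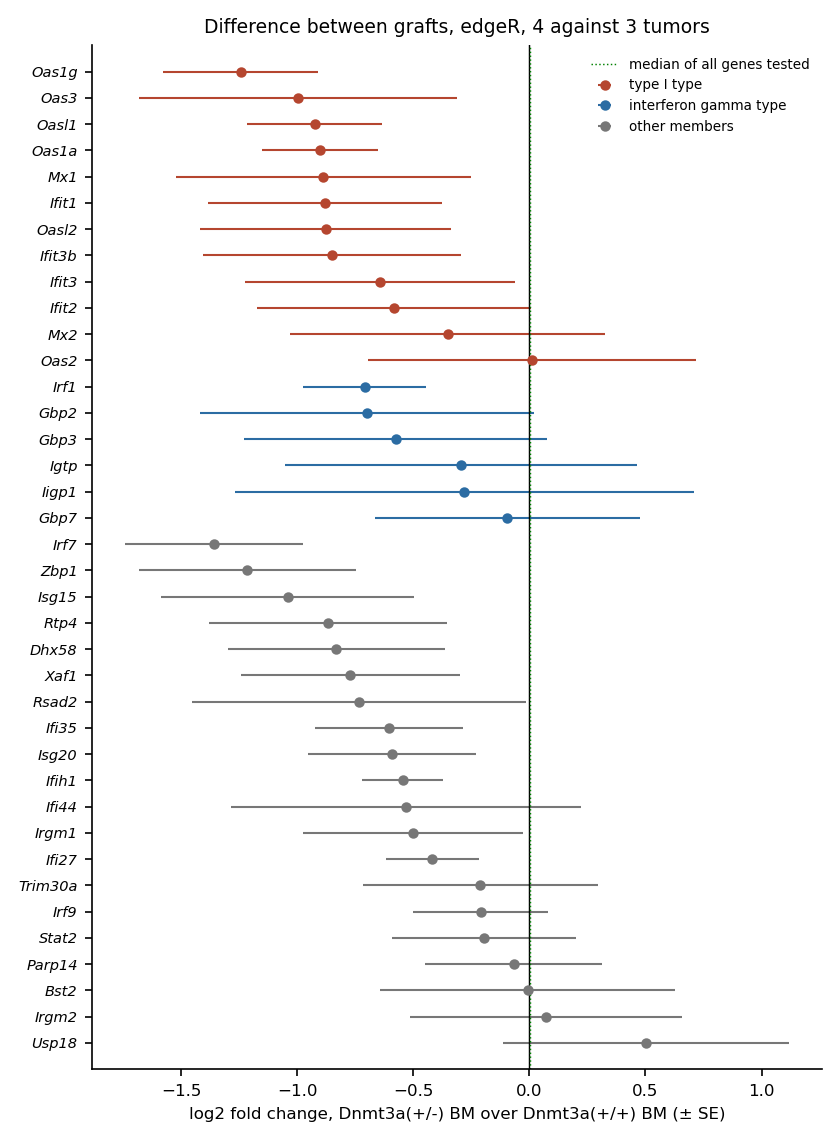
The log2 fold change of each member, Dnmt3a(+/-) BM over Dnmt3a(+/+) BM, with its standard error, in rows ordered by class. Points lie left of 0 for 35 of 38 members, and the error bars of 5 of the 6 interferon gamma type genes reach across 0.

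Among the transcription factors that drive the response, Irf7 had the lowest log2 fold change of all members. Irf7 is the ISRE-bound amplifier of type I interferon genes. It was at 194, 146 and 365 CPM in Dnmt3a(+/+) BM replicates 1 to 3 and at 128, 65.7, 110 and 62.5 CPM in Dnmt3a(+/-) BM replicates 1 to 4. Every Dnmt3a(+/-) BM tumor was below the lowest control, and replicates 2 and 4 were at similar levels although they came from different experiments. The log2 fold change was -1.36 ± 0.38 (SE; edgeR, adjusted p = 0.372), and DESeq2 gave an adjusted p of 0.0609. Without Dnmt3a(+/+) BM replicate 3, the log2 fold change of Irf7 was -0.89. Irf7 lies at chr7:141262706-141266481 (GRCm38, minus strand) and overlaps Phrf1 on the other strand. The library kit keeps the strand, but the strand setting of the counting is not given in the sources used here.

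Irf1, the early interferon gamma target that carries the GAS core shown above, was at 221, 271 and 396 CPM with Dnmt3a(+/+) BM. With Dnmt3a(+/-) BM it was at 206, 186, 209 and 122.5 CPM. The groups did not overlap, but replicate 1 of Dnmt3a(+/+) BM and replicate 3 of Dnmt3a(+/-) BM were close. Irf1 had a log2 fold change of -0.71 ± 0.26 (SE; edgeR, adjusted p = 0.420), which was -0.44 when Dnmt3a(+/+) BM replicate 3 was left out. Stat2, the subunit particular to the type I complex, overlapped fully, at 33.2, 30.7 and 52.1 CPM against 30.5, 59.5, 26.5 and 18.4 CPM. Its highest and its lowest value were both in Dnmt3a(+/-) BM tumors, replicates 2 and 4, and its log2 fold change was -0.20 ± 0.40 (SE; edgeR, adjusted p = 0.899). It was 0.085 without Dnmt3a(+/+) BM replicate 3 and 0.0075 without Dnmt3a(+/-) BM replicate 4. Irf9, the DNA-binding subunit of that complex, had a log2 fold change of -0.21, and it overlaps Rnf31 on the same strand, so shared reads are uncertain.

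The sensors of foreign nucleic acids gave 2 further members without overlap. Zbp1, which senses Z-form nucleic acids and can trigger necroptosis, was at 85.0, 90.0 and 237 CPM with Dnmt3a(+/+) BM and at 80.7, 68.5, 60.3 and 27.1 CPM with Dnmt3a(+/-) BM. The gap between the groups was small beside the spread within each, and replicate 3 of Dnmt3a(+/+) BM stood far above the rest. Its log2 fold change was -1.22 ± 0.47 (SE; edgeR, adjusted p = 0.422), and -0.56 without that tumor. Ifih1 (Mda5), a sensor of long double-stranded RNA, was at 66.1, 70.5 and 89.9 CPM against 56.2, 55.1, 54.6 and 40.8 CPM. The first 3 Dnmt3a(+/-) BM tumors were nearly level and the fourth was lower. Ifih1 had a log2 fold change of -0.55 ± 0.17 (SE; edgeR, adjusted p = 0.391). Dhx58 (Lgp2), a regulator of Ifih1, had a log2 fold change of -0.83 with overlapping groups.

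**Figure D2:**
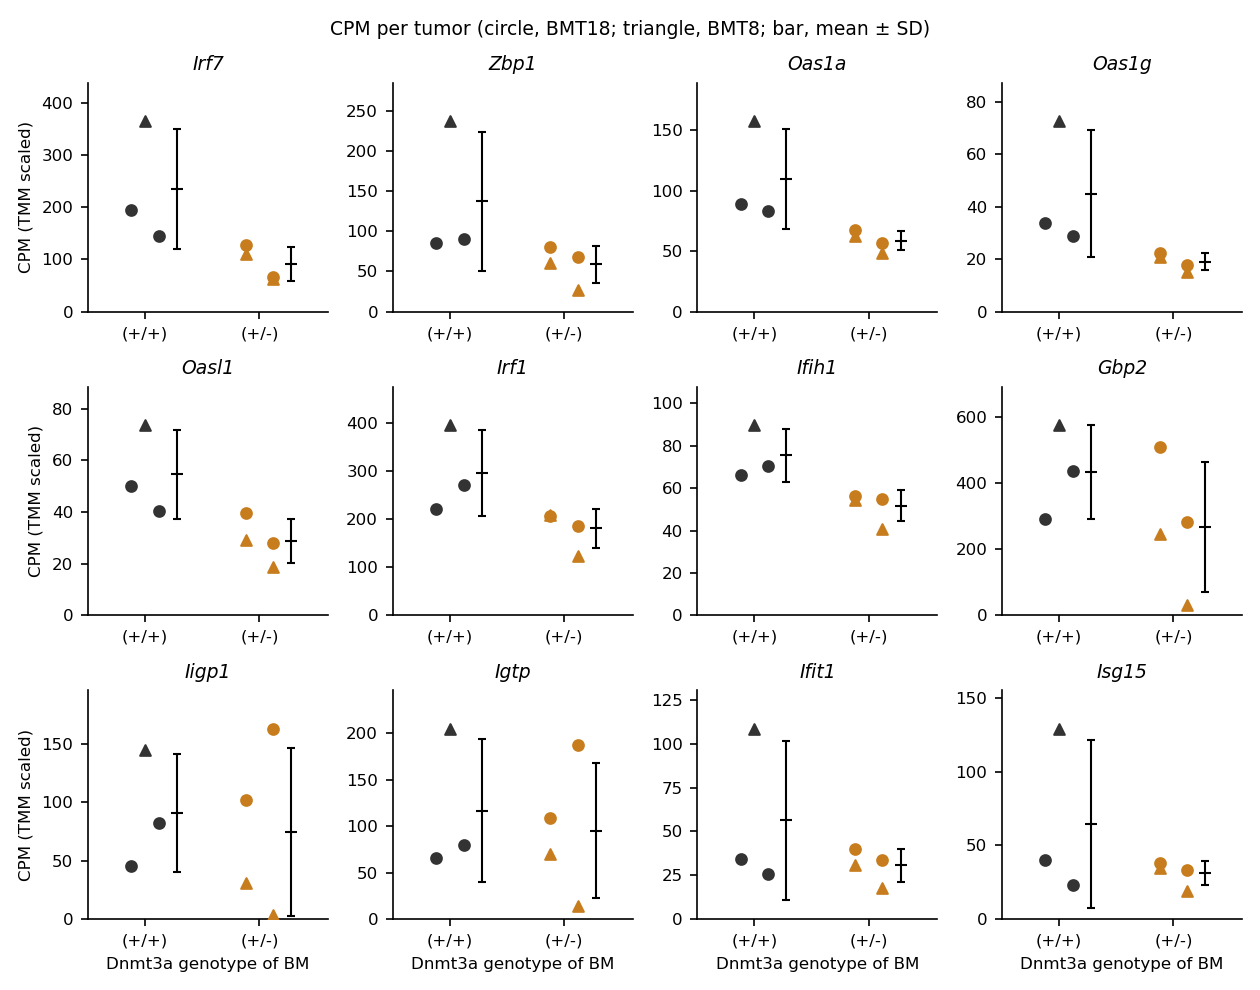
CPM of 12 members in each of the 7 tumors, with the mean and SD of each group, circles for BMT18 and triangles for BMT8. The first 7 genes do not overlap between groups, whereas Gbp2, Iigp1, Igtp, Ifit1 and Isg15 do.

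The Oas and Oasl genes contributed 3 of the 7 members without overlap. Oas enzymes make the messenger that activates RNase L, and Oasl1 is a relative without that activity that restrains translation of Irf7. Oas1a was at 89.1, 83.1 and 158 CPM with Dnmt3a(+/+) BM and at 67.8, 56.5, 62.2 and 48.7 CPM with Dnmt3a(+/-) BM. Oas1g was at 33.7, 28.7 and 72.7 CPM against 22.3, 17.8, 20.9 and 14.95 CPM. In both genes the 4 Dnmt3a(+/-) BM tumors lay within a narrow range, as the SDs of 8.16 and 3.28 CPM show, while the controls were spread by replicate 3. The log2 fold changes were -0.90 ± 0.25 for Oas1a (SE; edgeR, adjusted p = 0.361) and -1.24 ± 0.33 for Oas1g (SE; edgeR, adjusted p = 0.361). With Dnmt3a(+/+) BM replicate 3 left out, they were -0.55 and -0.71. Oas1a and Oas1g are neighbouring paralogs, and the split of reads between them, which rests on RSEM, is uncertain. With the identical stretch shown above included, their promoter windows matched at 207 of 298 bases (69.5%). Oasl1 was at 49.8, 40.3 and 73.7 CPM against 39.4, 28.1, 29.0 and 18.6 CPM. Its groups did not overlap, but replicate 2 of Dnmt3a(+/+) BM and replicate 1 of Dnmt3a(+/-) BM were nearly equal. Oasl1 had a log2 fold change of -0.92 ± 0.29 (SE; edgeR, adjusted p = 0.388).

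The other members of this family overlapped between groups. Oasl2 was at 72.9, 45.7 and 145 CPM with Dnmt3a(+/+) BM and at 74.8, 51.2, 49.7 and 15.7 CPM with Dnmt3a(+/-) BM. The highest value was again in Dnmt3a(+/+) BM replicate 3 and the lowest in Dnmt3a(+/-) BM replicate 4, with the other 5 tumors between them (log2 fold change -0.88 ± 0.54, SE; edgeR, adjusted p = 0.576). Oasl2 was at -0.30 on the log2 scale without Dnmt3a(+/+) BM replicate 3. Oas3 and Oas2 had log2 fold changes of -0.99 and 0.01.

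The Ifit genes, whose products bind viral RNA that lacks host cap methylation, had log2 fold changes from -0.88 to -0.58, and none was at an unadjusted p under 0.05. Ifit1 was at 34.4, 25.96 and 109 CPM with Dnmt3a(+/+) BM and at 39.9, 33.8, 31.01 and 17.6 CPM with Dnmt3a(+/-) BM. Ifit2 was at 42.0, 40.7 and 123 CPM against 84.3, 36.3, 46.9 and 15.9 CPM. In both, replicate 3 of Dnmt3a(+/+) BM was the highest of the 7 tumors and most Dnmt3a(+/-) BM tumors lay beside the other 2 controls. The log2 fold change of Ifit1 was -0.88 ± 0.51 (SE; edgeR, adjusted p = 0.551) and that of Ifit2 was -0.58 ± 0.59 (SE; edgeR, adjusted p = 0.752). Without that one control, they were 0.023 and 0.15. Ifit3 and Ifit3b are neighbouring paralogs and their values are uncertain in the same way as those of Oas1a and Oas1g.

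The Mx family encodes dynamin-like GTPases that can block viral replication, and whether the alleles of these mice do so was not examined. Per length of exon both genes were low, at 1.15 CPM per kb for Mx1 and 0.26 CPM per kb for Mx2 over the 7 tumors. Mx1 was at 5.59, 2.86 and 9.27 CPM against 4.82, 5.22, 1.44 and 1.27 CPM. Both Dnmt3a(+/-) BM tumors of BMT8 were below the other 5 tumors, whereas those of BMT18 lay among the controls (log2 fold change -0.89 ± 0.64, SE; edgeR, adjusted p = 0.633). The log2 fold change of Mx1 was -0.40 without Dnmt3a(+/+) BM replicate 3. Mx2, which the annotation holds as a polymorphic pseudogene, did not exceed 1.77 CPM in any tumor. Isg15, a ubiquitin-like protein that is joined to other proteins, was at 40, 23.3 and 129 CPM against 37.8, 33.3, 34.5 and 19.0 CPM. Replicate 3 of Dnmt3a(+/+) BM was more than 3 times any other tumor, and the remaining values overlapped (log2 fold change -1.04 ± 0.55, SE; edgeR, adjusted p = 0.521). Without that tumor, the log2 fold change of Isg15 was -0.02. Usp18, the protease that removes Isg15 and dampens signaling from Ifnar2, had the highest log2 fold change of the members, 0.50 ± 0.62 (SE; edgeR, adjusted p = 0.810).

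The spread of the interferon gamma type genes among tumors rested mainly on Dnmt3a(+/-) BM replicate 4, the lowest tumor for all 6 of them. That tumor was also the lowest for all 12 type I type genes. The ratio of the highest to the lowest tumor had a median of 13.4 over the 6 interferon gamma type genes and of 7.53 over the 12 type I type genes, against 2.29 over all genes tested. Without that replicate the medians were 2.86 and 4.13, in the opposite order, and without Dnmt3a(+/+) BM replicate 3 they were 10.5 and 4.10. The difference between the classes was not tested. Iigp1, a GTPase that attacks the vacuoles of intracellular parasites, had the highest ratio, 43.4. It was at 45.2, 82.3 and 145 CPM with Dnmt3a(+/+) BM and at 102, 163, 30.7 and 3.76 CPM with Dnmt3a(+/-) BM. The Dnmt3a(+/-) BM tumors of BMT18 were both above the controls of that experiment, and those of BMT8 were both below theirs (log2 fold change -0.28 ± 0.99, SE; edgeR, adjusted p = 0.946). Igtp (Irgm3), another of these GTPases, was at 65.2, 79.5 and 205 CPM against 109, 187, 69.9 and 14.0 CPM. The arrangement by experiment was the one seen for Iigp1 (log2 fold change -0.29 ± 0.76, SE; edgeR, adjusted p = 0.924). The log2 fold changes of Iigp1 and Igtp were 0.24 and 0.40 when Dnmt3a(+/+) BM replicate 3 was left out. Igtp overlaps Irgm2 on the same strand, and reads shared by these neighbours are uncertain.

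Gbp2, a guanylate-binding GTPase that opens bacterial and parasite vacuoles, was the most abundant member per length of exon, at 173 CPM per kb with Dnmt3a(+/+) BM and 107 CPM per kb with Dnmt3a(+/-) BM. In CPM it was at 293, 437 and 577.5 against 512, 283, 246.5 and 32.3. Replicate 1 of Dnmt3a(+/-) BM was second only to replicate 3 of Dnmt3a(+/+) BM, and replicate 4 was far below all others (log2 fold change -0.70 ± 0.72, SE; edgeR, adjusted p = 0.757). Leaving out 1 of these Dnmt3a(+/-) BM tumors moved the log2 fold change of Gbp2 to -1.17 (replicate 1) or -0.33 (replicate 4). Gbp3 and Gbp7 had log2 fold changes of -0.58 and -0.09. Irgm1, a regulator of these GTPases that was counted with the other members, was at 106, 121 and 213 CPM against 132, 152, 94.5 and 35.2 CPM. Here too the BMT18 tumors with Dnmt3a(+/-) BM were above their controls and the BMT8 tumors below theirs (log2 fold change -0.50 ± 0.47, SE; edgeR, adjusted p = 0.729). Without Dnmt3a(+/+) BM replicate 3, Irgm1 was at -0.12.

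The 10 antiviral effectors and other induced genes all had log2 fold changes below 0, from -0.87 for Rtp4, a chaperone of receptors, to -0.01 for Bst2 (tetherin), which holds budding virus at the cell surface. None was at an unadjusted p under 0.05. Between these were Rsad2 (viperin, -0.73), Xaf1 (-0.77), Ifi35 (-0.61), Isg20 (-0.59), Ifi44 (-0.53), Ifi27 (-0.42), Trim30a (-0.21) and Parp14 (-0.07). Per length of exon, the mean level over the 7 tumors was highest for Gbp2, at 135 CPM per kb. After it came Isg15 (59.9), Irf1 (57.9), Igtp (51.6), Oas1a (42.8) and Irf7 (40.5). Each of these genes varied more than 3-fold between tumors, so the order of these neighbours is within their spread.

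**Figure D3:**
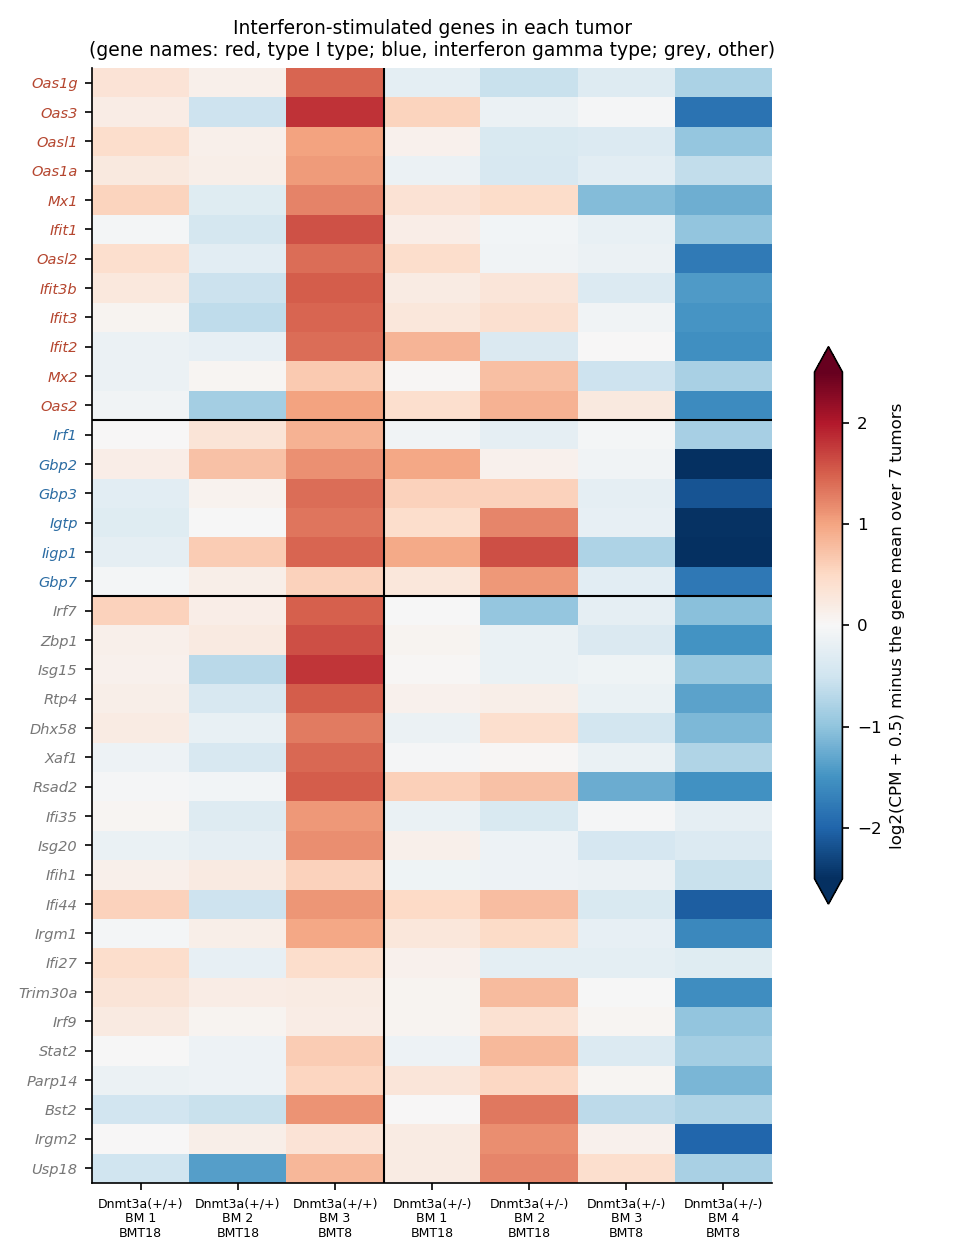
Each row is a member and each column a tumor, with color for log2(CPM + 0.5) minus the mean of that gene over the 7 tumors. The column of Dnmt3a(+/+) BM replicate 3 is red for nearly all genes, where 28 of 38 members had their highest value, and that of Dnmt3a(+/-) BM replicate 4 is blue, where 35 of 38 had their lowest.

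Both tumors at the ends of the range set much of the pattern. Dnmt3a(+/+) BM replicate 3 had the highest value of the 7 tumors for 28 of 38 members, against 18.3% of all genes tested. Dnmt3a(+/-) BM replicate 4 had the lowest value for 35 of 38 members, against 13.6% of all genes. Both tumors belonged to BMT8. Without replicate 3 of Dnmt3a(+/+) BM, 3 members remained lower at an unadjusted p under 0.05 (Irf7, Oas1a and Oas1g), 21 of 38 had a log2 fold change below 0, and the median over the members of the type I type was -0.046. Without replicate 4 of Dnmt3a(+/-) BM, 5 members remained and 27 of 38 were below 0. With both left out, 13 of 38 were below 0, Ifih1, Oas1a and Oas1g remained lower at an unadjusted p under 0.05, and 2 members were higher.

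Within the experiments, the difference between grafts ran in opposite directions for most members. In BMT18, with 2 tumors a group, the log2 difference of mean CPM was above 0 for 29 members and below 0 for 9, with a median of 0.27. There, both Dnmt3a(+/-) BM tumors were above both controls for 14 members (against 23.5% of all genes) and below both for 7 members (18.4%, against 26.2% of all genes). They are the same 7 that did not overlap over all tumors. Lack of overlap over all tumors requires this order in BMT18, so it is no separate result. In BMT8, with 2 tumors against 1, all 38 members were below the single control in both Dnmt3a(+/-) BM tumors, against 35.5% of all genes, and the median log2 difference was -1.91. The 14 members that were higher in BMT18 were thus lower in BMT8, an arrangement held by 4.82% of all genes.

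The test of this difference, an interaction of graft and experiment in edgeR, passed for 0 members and for 0% of all genes after adjustment. At an unadjusted p under 0.05 there were 28 of 38 members, against 4.62% of all genes. A likelihood ratio test in DESeq2 called 7 members, against 0.647% of the genes it tested: Bst2, Ifit1, Isg15, Isg20, Mx1, Rsad2 and Xaf1. For Rsad2 the CPM was 7.47 and 7.23 against 11.7 and 13.0 in BMT18, and 22.7 against 2.95 and 2.33 in BMT8. Since BMT8 held 1 Dnmt3a(+/+) BM tumor, a property of that tumor and a property of the experiment cannot be told apart.

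**Figure D4:**
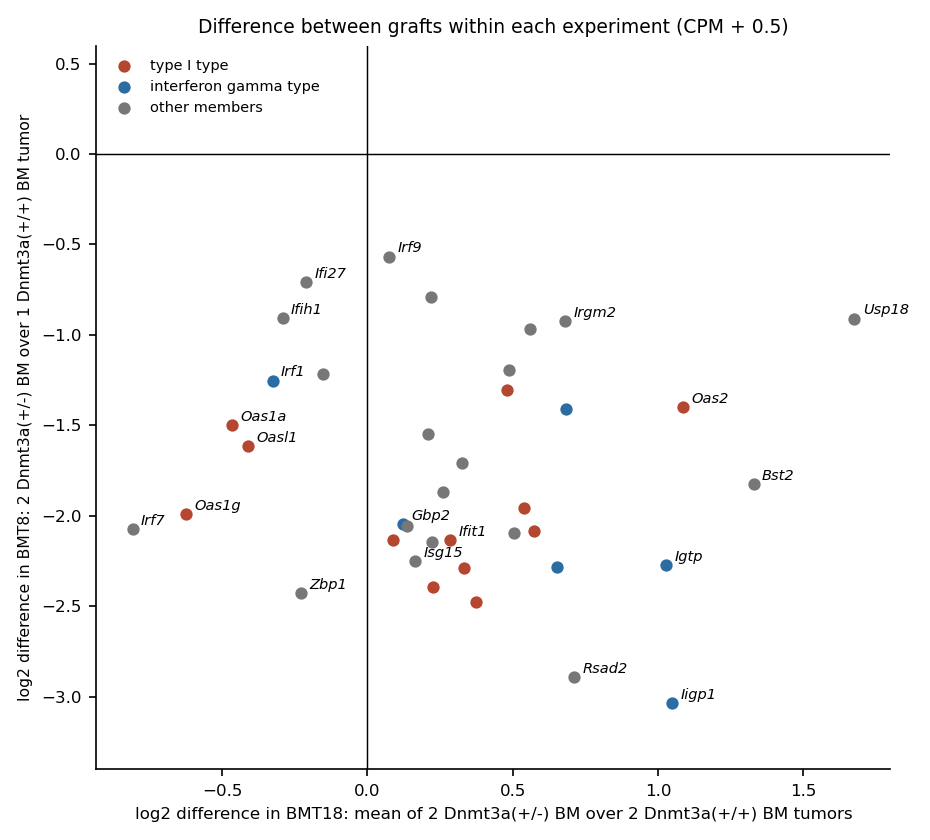
Each point is a member, with the log2 difference between grafts in BMT18 on the horizontal axis and in BMT8 on the vertical axis, from mean CPM + 0.5. All 38 points lie below the horizontal line, and 29 lie right of the vertical line, with Irf7, Oas1g, Oas1a, Oasl1, Irf1, Ifih1 and Zbp1 among the 9 on the left.

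The gap between the classes did not separate the grafts. Mean log2 CPM (prior count 2) of the type I type genes averaged 3.77 ± 0.74 over Dnmt3a(+/-) BM tumors (SD, n = 4) and 4.51 ± 0.84 over Dnmt3a(+/+) BM tumors (SD, n = 3), so the difference was -0.74. For the interferon gamma type genes it was 6.03 ± 1.42 (SD, n = 4) and 6.82 ± 0.63 (SD, n = 3), a difference of -0.79. Within a tumor, the type I type mean minus the interferon gamma type mean was -1.98, -2.88 and -2.06 with Dnmt3a(+/+) BM and -2.53, -2.91, -2.30 and -1.29 with Dnmt3a(+/-) BM. The groups overlapped, and the difference of 0.05 between them was smaller than the SDs of 0.69 and 0.50. Taken gene by gene, the median log2 fold change was -0.88 for the type I type and -0.43 for the interferon gamma type, so the medians order the classes in the opposite way to the means. Within experiments, the difference was -0.29 in BMT18 and 0.26 in BMT8.

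**Figure D5:**
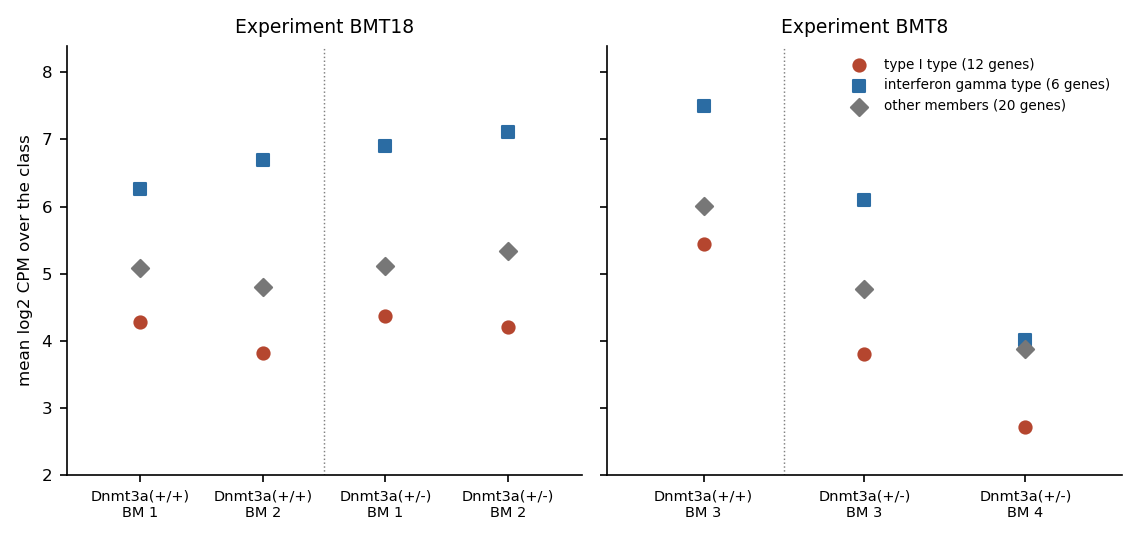
Mean log2 CPM of each class in each tumor, by experiment, with a dotted line between the grafts. Within BMT18 the values of a class stay within 1 log2 unit, and in BMT8 all 3 classes step down from Dnmt3a(+/+) BM replicate 3 to Dnmt3a(+/-) BM replicate 4. Genes of different length enter each mean, so only the same class should be compared between tumors.

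Marker lists of other cell types were set beside the ISGs in the same tumors. The T and NK cell markers summed to 17.7, 8.76 and 19.9 CPM in Dnmt3a(+/+) BM replicates 1 to 3, where the interferon gamma type means were 6.26, 6.69 and 7.505. In Dnmt3a(+/-) BM replicates 1 to 4 they summed to 19.6, 26.9, 10.9 and 1.30 CPM, with means of 6.90, 7.11, 6.10 and 4.01. The tumor with the lowest mean also had the lowest sum and the lowest value of all 8 tested markers, but replicate 2 of Dnmt3a(+/+) BM had a lower sum and a higher mean than replicate 1. The 6 general leukocyte markers summed to between 50.5 and 108 CPM with Dnmt3a(+/+) BM and between 44.2 and 203 CPM with Dnmt3a(+/-) BM, and 5 of 6 had log2 fold changes above 0. Within the experiments, all 6 were above 0 in BMT18 and below 0 in BMT8, as were the 8 tested T and NK cell markers. Replicate 2 of Dnmt3a(+/-) BM was highest for all 6 leukocyte markers. The 8 macrophage markers summed to between 147 and 231 CPM with Dnmt3a(+/+) BM and between 153 and 358 CPM with Dnmt3a(+/-) BM, none of them at 0 counts. Cd14 alone gave 81.7 to 119 CPM of these sums and varied little, with a ratio of highest to lowest tumor of 1.46. For these markers the log2 difference between grafts was above 0 for all 8 in BMT18 and below 0 for 7 of 8 in BMT8. All 10 epithelial markers had log2 fold changes below 0, with a median of -0.57, and 6 of the 10 were highest in Dnmt3a(+/+) BM replicate 3. In the plasmacytoid dendritic cell list, the defining marker Siglech did not exceed 0.48 CPM, and the sum was carried by Klk1 (27.6 to 363.5 CPM) and the member Bst2, so it is no measure of these cells. Smooth muscle markers summed to 21.4 CPM in Dnmt3a(+/+) BM replicate 3, the tumor with the highest ISG levels, and to between 217 and 1027 CPM in the other 6 tumors. All 6 endothelial markers had log2 fold changes above 0, and 4 were at an unadjusted p under 0.05 in edgeR, against 5.83% of all genes higher. DESeq2 called Cdh5, Kdr and Pecam1 (adjusted p = 0.0330, 0.0331 and 0.0364), did not call Vwf or Emcn, and gave Tek no adjusted p. Replicate 2 of Dnmt3a(+/-) BM was highest for 5 of the 6 endothelial markers. The part of these lists in the values of the ISGs was not tested.

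Of the ligands, 17 of 21 interferon genes with a row had 0 counts in every tumor, and 1 (Ifng) was tested. Ifne, an interferon known from epithelia, had 79 counts over the 7 tumors, Ifnz had 15, and Ifnb1 had 1, in Dnmt3a(+/-) BM replicate 2. These 3 were too low to be tested. Ifng was at 0.35, 0.47 and 1.47 CPM with Dnmt3a(+/+) BM and at 0.62, 1.30, 0.24 and 0 CPM with Dnmt3a(+/-) BM. The 0 in replicate 4 allows up to 0.0811 CPM (3 counts, counting error only). Thus the 2 tumors with the highest Ifng were Dnmt3a(+/+) BM replicate 3 and Dnmt3a(+/-) BM replicate 2, and the groups overlapped (log2 fold change -0.47 ± 1.15, SE; edgeR, adjusted p = 0.921).

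Of the 6 receptor genes, 1 (Ifngr1) was lower in every Dnmt3a(+/-) BM tumor than in every control, against 6.32% of all genes. This ligand-binding chain of the interferon gamma receptor was at 315, 296 and 242 CPM with Dnmt3a(+/+) BM and at 216.5, 131, 222 and 210.2 CPM with Dnmt3a(+/-) BM. The groups did not overlap, and replicate 2 was the lowest (log2 fold change -0.54 ± 0.22, SE; edgeR, adjusted p = 0.433). Ifnar1, a chain of the type I receptor, had a log2 fold change of 0.27 ± 0.21 (SE; edgeR, adjusted p = 0.667). In the list of 14 signal transduction genes and inhibitors, none was at an unadjusted p under 0.05.

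Among 14 genes of nucleic acid sensing, 1 was at an unadjusted p under 0.05 and higher, against 5.83% of all genes. Tmem173 (Sting), the adaptor of cytosolic DNA sensing, was at 25.3, 21.5 and 42.5 CPM against 44.5, 199, 63.4 and 53.5 CPM. The groups did not overlap, and replicate 2, the tumor with the highest fibroblast and endothelial markers, was more than 3 times the next (log2 fold change 1.598 ± 0.58, SE; edgeR, adjusted p = 0.407). Of 26 further ISGs of mainly type I kind, 22 had a log2 fold change below 0, with a median of -0.58. At an unadjusted p under 0.05, 4 of the 26 were lower, against 5.2% of all genes. These were Ifit1bl1 (-1.149), Sp100 (-0.89), Parp12 (-0.61) and Epsti1 (-0.54). In BMT18, 17 of the 26 were below 0 and 9 above, and in BMT8 all 26 were below 0. Ifit1bl1, a relative of the Ifit genes, was at 609, 481 and 907 CPM against 439, 161, 423 and 177 CPM. Each Dnmt3a(+/-) BM tumor was below each control, with replicates 2 and 4 well below the rest. Of 15 further ISGs of mainly interferon gamma kind that were tested, 9 had a log2 fold change below 0 and 6 above, with none at an unadjusted p under 0.05. In BMT18, 13 of the 15 were above 0 and 2 below, and in BMT8 all 15 were below 0. Nlrc5, the activator of MHC class I genes, had a log2 fold change of -0.35 ± 0.78 (SE; edgeR, adjusted p = 0.912), and its lowest value, 1.97 CPM, was in Dnmt3a(+/-) BM replicate 4. No gene of these lists passed after adjustment.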

How the data were processed

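Whole colon tumors were profiled by poly(A)-selected, strand-specific RNA sequencing from 100 ng RNA. Per the labels and the study's methods, the authors trimmed reads with Trimmomatic, aligned them to mm10 with STAR and estimated counts per gene with RSEM. The deposited values are these estimated counts, as whole numbers without normalization. The annotation release is not given in the sources used here.

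Symbols were matched by Ensembl identifier, and positions and exon lengths are from GENCODE M21. Groups follow the labels. The test across all genes came from edgeR 4.0.16 under R 4.3.3 (TMM, filterByExpr, quasi-likelihood test, Benjamini-Hochberg adjustment over all genes tested, no covariate). Standard errors derive from the F statistic. DESeq2 1.42.0, the authors' tool, was an alternative, as were other scalings, filters, designs and left-out tumors. The scripts were tested on simulated data. No pair of tumors was a duplicate, since each differed beyond sampling noise.

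Members, gene lists and tests were chosen with earlier results of these data known. Values in every tumor are given for members at an unadjusted p under 0.05 or without overlap, the 3 members of each class with the highest mean CPM, and Ifit1, Isg15, Mx1, Irf7, Stat2, Irf1, Gbp2 and Iigp1. Of the pathway genes, those at an unadjusted p under 0.05 and Ifng, Ifnb1, Ifnar1, Ifngr1 and Nlrc5 are named. Another pathway gene is not reported here.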

Additional observations from a re-analysis of the deposited data

Results flagged for a closer look

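Among the 4 Dnmt3a(+/-) BM tumors, 2 of 43 values examined had 1 tumor set apart from the others by Dixon's test, about as many as chance gives (2.15). They were Ifih1 in replicate 4, at 40.8 CPM, and Ifi27 in replicate 1, at 50.1 CPM.

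For 17 members the difference between grafts was set apart between BMT8 and BMT18 by at least 1 of 2 criteria. For 14, the tumors of the experiments lay in opposite directions, against 4.82% of all genes, without a test in that criterion. DESeq2's likelihood ratio test called 7, against 0.647% of the genes it tested, and 4 met both. edgeR's log2 difference (BMT8 minus BMT18) was -4.12 for Iigp1, -3.86 for Rsad2, -3.32 for Igtp, -3.21 for Bst2, -3.02 for Mx1 and -2.96 for Gbp3. It was -2.75 for Oas2, -2.70 for Ifit3, -2.65 for Usp18, -2.45 for Ifit1, -2.44 for Isg15 and -2.20 for Xaf1. For Gbp7, Irgm1, Isg20, Irgm2 and Parp14 it was -2.13, -2.04, -1.78, -1.61 and -1.54. None passed in edgeR (adjusted p = 1.00 for each), and BMT8 held 1 Dnmt3a(+/+) BM tumor.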

How the results depend on the processing

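No member was called for the difference between grafts under any alternative run. DESeq2 called 299 genes where edgeR called 0, and 99, with 7 members among them, against 0 for the interaction of graft and experiment; the cause was not tested. The 7 members lower at an unadjusted p under 0.05 became 4 with scaling by library size only, 2 in BMT18 alone (where 5 were higher), 3 with both tumors at the ends of the range left out (chosen after seeing the data; 2 were higher) and 3 to 12 with 1 tumor left out (3 without Dnmt3a(+/+) BM replicate 3, 12 without its replicate 2). The 7 without overlap became 4 with scaling by library size only, which shifts the median of all genes to 0.21, and 7 to 12 with 1 tumor left out. The median log2 fold change of all members was 0.29 in BMT18 alone and 0.17 without both tumors at the ends. That of the type I type was 0.33 and 0.20, and -1.149 to -0.046 with 1 tumor left out. With Irgm1 and Irgm2 counted in the interferon gamma type, the class difference between grafts was -0.03.

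Of 272 values of 17 named members, 30 changed sign and 0 passed the threshold. With scaling by library size only, Igtp was 0.032, Iigp1 0.034 and Stat2 0.089. In BMT18 alone, Gbp2 was 0.13, Ifit1 0.30, Ifit2 0.55, Igtp 1.05, Iigp1 1.07, Irgm1 0.34, Isg15 0.18, Mx1 0.26, Oasl2 0.10 and Stat2 0.51. Without both tumors at the ends, Ifit1 was 0.22, Ifit2 0.44, Igtp 0.77, Iigp1 0.64, Irgm1 0.17, Isg15 0.17 and Stat2 0.30. With 1 tumor left out, Ifit1 ranged from -1.23 to 0.023, Ifit2 from -1.01 to 0.15, Igtp from -0.84 to 0.40, Iigp1 from -0.99 to 0.24 and Stat2 from -0.596 to 0.085. Without a change of sign, the range was -1.61 to -0.89 for Irf7, -1.47 to -0.56 for Zbp1, -1.49 to -0.71 for Oas1g, -1.07 to -0.55 for Oas1a, -1.11 to -0.65 for Oasl1, -0.885 to -0.44 for Irf1 and -0.637 to -0.40 for Ifih1. It was -1.44 to -0.02 for Isg15, -1.22 to -0.40 for Mx1, -1.19 to -0.30 for Oasl2, -1.17 to -0.33 for Gbp2 and -0.73 to -0.12 for Irgm1.

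With the experiment as a covariate in edgeR, 0 genes were called, 35 of 38 members were below 0, and the lowest adjusted p of a member was 0.261. In that fit Ifi35 took the place of Zbp1 among the members lower at an unadjusted p under 0.05. With the replicate number as a block, 5 members were lower at an unadjusted p under 0.05 and 0 genes were called, Igtp was 0.19 and Iigp1 0.077, and the block changed no call. The numbers were not taken as pairs, since deviations of same-numbered tumors correlated at 0.568, 0.0711 and -0.0377. Depth limits Ifng, Mx2 and the ligands, which had few counts or none.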
